A study of Mus musculus with 36 samples.

Results

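The genes described here encode the readers and erasers of N6-methyladenosine (m6A) in mouse embryonic stem (ES) cells: the YTH-domain readers Ythdc1, Ythdc2, Ythdf1, Ythdf2 and Ythdf3, and the demethylases Alkbh5 and Fto. They were chosen by symbol, and all 7 were present among the 18419 genes listed in each of the 6 deposited tables (22979 genes were listed in any table). The assay was SLAM-seq, a pulse of 4-thiouridine (4sU) whose incorporation shows up, after treatment with iodoacetamide, as T-to-C conversions in the reads of labelled transcripts. Total RNA of 3 degron lines, each 1 clone, gave 36 libraries. METTL3 (12D), YTHDC1 (Y12H) or ZCCHC8 (Z12H) was fused in them to FKBP12 F36V, which the compound dTAG-13 directs to the proteasome. All lines were XX Cast x 129S ES cells with a TetOn promoter in place of the Xist promoter on the 129S allele and with Bgl stem loops inserted in Xist. Both arms carried the tag and the Xist alleles and differed by treatment. Ctrl cells were untreated, whereas dTAG cells received dTAG-13 from 2 h before doxycycline. All cells then received doxycycline at 1 µg/ml for 20 h and for a further 4 h with 500 µM 4sU. The pulse was chased with 50 mM uridine and doxycycline for 0, 90 or 180 min. Each of the 18 groups had 2 replicates, which gave 6 libraries per line and arm. The cells were grown on feeders and preplated to discard these before labelling. Per the study's description of its cultures, repeats of a clone were independent and the wells of a replicate came from a common batch of cells. The 6 libraries of a line and replicate therefore share that batch and are not 6 independent cultures, and p-values that count every library measure the spread between libraries.

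m6A is written onto nascent RNA in the nucleus by a complex around METTL3 and METTL14 and is recognised by proteins with a YTH domain. YTHDC1 is the nuclear reader, linked to splicing, export and nuclear RNA decay, and YTHDC2 is an RNA helicase known best from meiosis. YTHDF1, YTHDF2 and YTHDF3 are closely related cytoplasmic readers, of which YTHDF2 is known for recruiting the CCR4-NOT deadenylase to methylated mRNA, while ALKBH5 and FTO are dioxygenases that remove the methyl group.

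On build mm10, Ythdc1 (ENSMUSG00000035851) lies at chr5:86804221-86836659 on the plus strand, Ythdf1 (ENSMUSG00000038848) at chr2:180904377-180920949 on the minus strand and Ythdf2 (ENSMUSG00000040025) at chr4:132184912-132212303 on the minus strand. Ythdf3 (ENSMUSG00000047213) lies at chr3:16183212-16217037, Alkbh5 (ENSMUSG00000042650) at chr11:60536381-60558512 and Fto (ENSMUSG00000055932) at chr8:91313525-91668439, all on the plus strand. Ythdc2 is ENSMUSG00000034653. All 7 are annotated as protein coding. Ythdc1 overlaps the noncoding gene Gm43055 on its own strand and Fto overlaps 8 annotated genes, 4 of them on its strand, so reads of these could be shared. Upstream sequence is shown for Ythdc1, Ythdf1 and Ythdf2, the members with the largest changes in read counts below. Each run holds 200 bases, from 250 to 51 before the RefSeq start (GRCm38.p6), 5′ to 3′ on the gene's strand, and capitals mark GGGCGG (the SP1 box) or CCAAT on either strand. The windows are chr5:86804016-86804215 (plus), chr2:180920987-180921186 (minus) and chr4:132212307-132212506 (minus).
Ythdc1: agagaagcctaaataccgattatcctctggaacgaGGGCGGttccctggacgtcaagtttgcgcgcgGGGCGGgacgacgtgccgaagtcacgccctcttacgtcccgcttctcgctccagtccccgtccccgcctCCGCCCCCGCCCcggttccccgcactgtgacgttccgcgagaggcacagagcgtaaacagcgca
Ythdf1: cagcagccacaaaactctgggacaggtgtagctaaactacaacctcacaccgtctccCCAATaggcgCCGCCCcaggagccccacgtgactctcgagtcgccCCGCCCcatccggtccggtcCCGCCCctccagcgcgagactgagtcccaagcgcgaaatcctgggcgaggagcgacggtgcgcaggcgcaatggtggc
Ythdf2: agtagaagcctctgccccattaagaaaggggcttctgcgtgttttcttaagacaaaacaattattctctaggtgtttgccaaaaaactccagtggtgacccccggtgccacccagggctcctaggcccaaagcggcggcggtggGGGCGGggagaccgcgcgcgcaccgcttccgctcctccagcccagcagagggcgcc
GGGCGG was found 4 times upstream of Ythdc1, 3 times upstream of Ythdf1 and once upstream of Ythdf2, and 24.6% of 32817 RefSeq promoter windows of this length held it. CCAAT was found only upstream of Ythdf1 among the 5 members with a window, against 28.4% of all windows, and the ETS motif CCGGAAG in none of the 5, against 3.98%. The windows of Alkbh5 and Fto held no match to any of the 3 motifs. The Alkbh5 window (chr11:60537433-60537632, plus) precedes the RefSeq start but lies inside the gene span given above, so it is not upstream of that span. GC content was 65.5% for Ythdc1, 66.5% for Ythdf1, 61% for Ythdf2, 53% for Alkbh5 and 58% for Fto, against a median of 51.5% over all windows. A match is a description of the letters and not a binding site.

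The Ythdc1 end of the coding sequence is shown as well, because the study designed the guide for the degron insertion of the YTHDC1 line near this stop codon. The last 30 coding bases lie at chr5:86835879-86835908 (mm10, plus strand), with the stop codon in capitals.
Ythdc1 stop: cgaggggagagaggtcgttatcgaagaTAA
Of the 9 annotated Ythdc1 transcripts, the coding ones share 1 stop position, and both arms of the YTHDC1 line carry the insertion.

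Depth was 5274684 to 18652000 reads per library and lowest in the ZCCHC8 line, at 5274684 to 10257631. The 10 ES cell markers, Pou5f1, Nanog and Sox2 among them, were detected in every line, with a summed level of 2815 to 4176 CPM (reads scaled by library size with TMM factors over all 36 libraries). The 10 fibroblast markers summed to 28.2 to 68.6 CPM, with 58.6 to 66.6 CPM in the ZCCHC8 line and 28.2 to 68.6 CPM in the METTL3 line. The degron acts on protein, and the median level of Mettl3 mRNA in the METTL3 line was 58 CPM without and 58.2 CPM with dTAG-13. Protein levels are not part of these data. Zcchc8 mRNA stood at 28.6 to 43 CPM in the ZCCHC8 line in both arms, below the 54.5 to 112 CPM of the other lines.

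The members spanned a wide range of levels in untreated cells. Per kilobase of the deposited gene length, the mean over the 18 Ctrl libraries was 69.7 ± 12 CPM for Ythdf2 (SD, n = 18), 53.8 ± 5.31 for Ythdf1, 37.4 ± 7.08 for Ythdc1 and 29.4 ± 4.21 for Ythdf3. The erasers followed with 23.1 ± 3.75 CPM per kilobase for Alkbh5 and 16.8 ± 2.38 for Fto, and Ythdc2 was lowest at 4.43 ± 0.796. Ythdf2 exceeded 94.1% of all genes on this scale, Fto 75.9% and Ythdc2 52.6%. Each member was above the next of this order in 18 of 18 Ctrl libraries, although the ranges of neighbours overlapped across libraries. The place of Ythdc1 depends on its length. The deposited 6313 bases are those of a retained-intron transcript, and per kilobase of its longest coding transcript (3269 bases) Ythdc1 reached 72.2 ± 13.7 CPM, next to Ythdf2.

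Loss of METTL3 was accompanied by higher read counts of 3 readers and 1 eraser. Of 7 members, 4 rose and none fell (edgeR, 6 dTAG against 6 Ctrl libraries), and 20.1% of the 14413 genes tested were called, in either direction. The median log2 fold change was 0.31 for the members and 0.01 for all genes. Bulk RNA cannot tell a change in the number of cells from a change in RNA per cell.

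Ythdc1, the nuclear reader, ranged in the METTL3 line from 216 CPM through a median of 237 to 302 CPM in the Ctrl arm and from 321 through 361 to 448 CPM in the dTAG arm. The arms did not overlap, and dTAG was higher in 6 of 6 pairs of the same replicate and chase time. The log2 fold change was 0.61 (SE 0.12, edgeR adjusted p 0.00534), and it was 0.84 without replicate 2 and 0.37 without replicate 1. Ythdf2, the reader tied to mRNA decay, ranged from 234 through 296 to 406 CPM in Ctrl and from 391 through 462 to 594 CPM in dTAG libraries. The highest Ctrl library, at 180 min, lay just above the lowest dTAG library, and dTAG was higher in 6 of 6 pairs. The log2 fold change was 0.67 (SE 0.14, edgeR adjusted p 0.00827).

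The other 2 increases were smaller. Ythdf1, a cytoplasmic reader, ranged from 160.5 through 172 to 204 CPM in Ctrl and from 202 through 221.5 to 250.3 CPM in dTAG libraries, a log2 change of 0.35 (SE 0.096, edgeR adjusted p 0.0239). Alkbh5, the nuclear eraser, ranged from 109 through 122.5 to 153 CPM in Ctrl and from 129 through 153 to 187 CPM in dTAG libraries, a log2 change of 0.31 (SE 0.083, edgeR adjusted p 0.0246). Arms overlapped for both genes, and dTAG was higher in 6 of 6 pairs. Ythdf3, the third cytoplasmic reader, ranged from 145 to 184 CPM in Ctrl and from 151 to 294 CPM in dTAG libraries, with a log2 change of 0.31 (SE 0.14, edgeR adjusted p 0.133). It passed the threshold with the replicate number as a block (0.29, edgeR adjusted p 0.0134), a setting that called 48.5% of all genes. The change of Ythdf3 was 0.52 without replicate 2 and 0.07 without replicate 1. Fto (0.13, SE 0.18, edgeR adjusted p 0.673) and Ythdc2 (0.05, SE 0.2, edgeR adjusted p 0.892) did not pass. Mean differences in log2 CPM of replicates 1 and 2 were −0.06 and 0.24 for Fto and 0.23 and −0.27 for Ythdc2. Ythdc2 spread from 29.2 to 45.8 CPM in Ctrl and from 19.2 to 64.9 CPM in dTAG libraries, and Fto from 54.7 to 90.4 and from 56.0 to 99.5 CPM. The change of Fto was 0.25 without replicate 1 (edgeR adjusted p 0.00244, with 52.3% of all genes called) and 0.01 without replicate 2. Without a filter on low counts, Ythdf1 (edgeR adjusted p 0.0931) and Alkbh5 (0.127) lost their call. With the 3 chase libraries of each replicate summed, 2 against 2, edgeR called 0 of 7 members and 0 of 15895 genes. An unadjusted edgeR p under 0.05 was reached by 0 members and by 1433 genes.

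**Figure D1:**
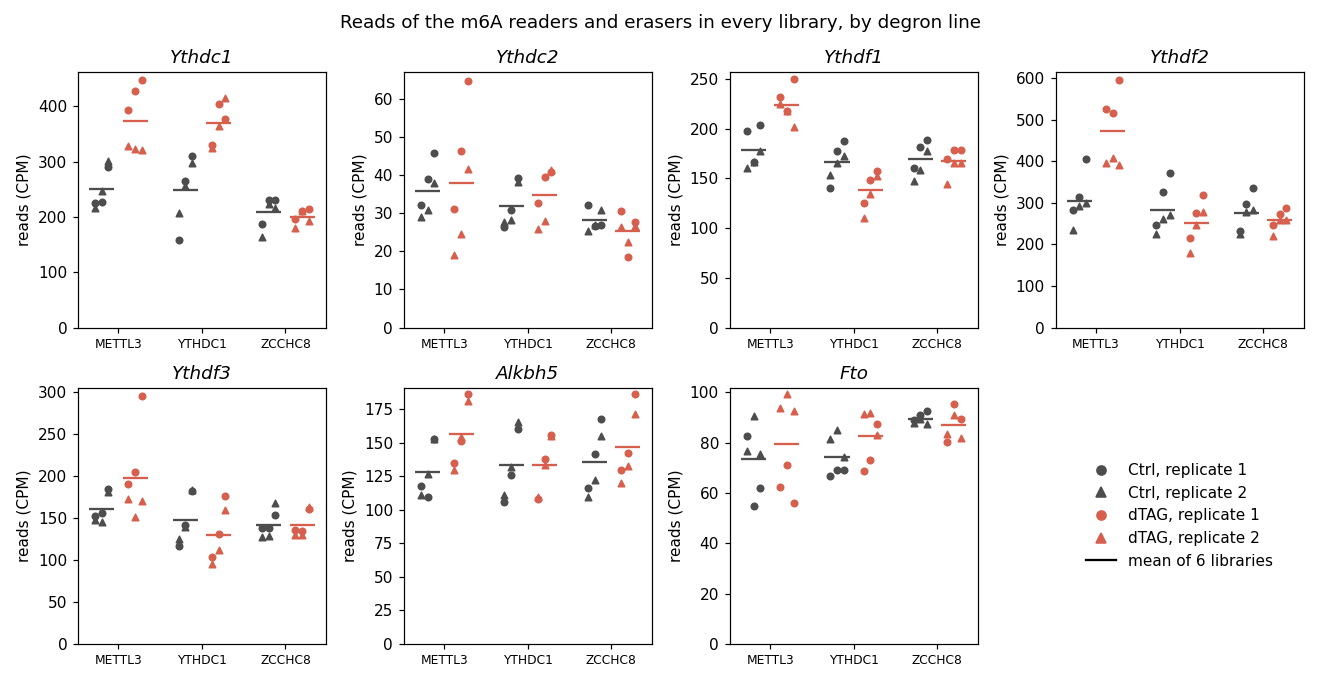
Level of each m6A reader and eraser in CPM (y axis) in every library, by line and arm, with points for libraries circles for replicate 1, triangles for replicate 2 and a horizontal bar for the mean of the 6 libraries of an arm. In the METTL3 line, Ythdc1 sits at 216 to 302 CPM in Ctrl and 321 to 448 CPM in dTAG libraries, and in the YTHDC1 line at 158 to 310 and 325 to 415 CPM, without overlap, whereas in the ZCCHC8 line the arms overlap.

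Loss of YTHDC1 was accompanied by higher read counts of Ythdc1 and lower ones of Ythdf1. These 2 of 7 members were called, against 5.25% of the 14199 genes tested in either direction. The members' median log2 fold change was 0.00, and that of all genes 0.01. Ythdc1 ranged from 158 through 260 to 310 CPM in Ctrl and from 325 through 371 to 415 CPM in dTAG libraries. The arms did not overlap, and the log2 fold change was 0.60 (SE 0.095, edgeR adjusted p 0.00487). Without replicate 2 the change was 0.63, and the edgeR adjusted p was 0.118. The gene for the targeted protein thus had higher read counts in its own degron line. These counts, here and in the METTL3 line, do not separate coding from retained-intron Ythdc1 transcripts or from reads shared with Gm43055.

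Ythdf1 ranged from 141 through 169 to 188 CPM in Ctrl and from 110 through 142 to 158 CPM in dTAG libraries of the YTHDC1 line. dTAG was lower in 6 of 6 pairs, the arms overlapped, and the log2 fold change was −0.27 (SE 0.064, edgeR adjusted p 0.0329). Its relatives Ythdf3 (−0.20, SE 0.065, edgeR adjusted p 0.109) and Ythdf2 (−0.17, SE 0.099, edgeR adjusted p 0.389) missed the threshold. With the replicate block both passed, at edgeR adjusted p 0.00315 for Ythdf3 and 0.0083 for Ythdf2, as did 27.3% of all genes. Ythdf3 was lower in 6 of 6 pairs and Ythdf2 in 5 of 6. Fto was higher in 6 of 6 pairs but not called (0.16, SE 0.1, edgeR adjusted p 0.462), and Ythdc2 (0.13) and Alkbh5 (0.00) were not called either. DESeq2 called 3 members, adding Ythdf3, against 5.3% of genes. Without a filter on low counts only Ythdc1 was called, against 2.83% of genes. With chase libraries summed edgeR called 0 of 7 members and 0 of 15513 genes, and 1 member and 696 genes had an unadjusted edgeR p under 0.05.

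Loss of ZCCHC8, a subunit of the NEXT complex that hands nuclear RNA to the exosome, was accompanied by a change in 1 of 7 members, against 39.6% of 13962 genes tested in either direction. Alkbh5 ranged from 109 through 132 to 168 CPM in Ctrl and from 120 through 138 to 187 CPM in dTAG libraries. The arms overlapped, dTAG was higher in 6 of 6 pairs, and the log2 fold change was 0.18 (SE 0.048, edgeR adjusted p 0.00393). The call was lost without replicate 2 (0.17, edgeR adjusted p 0.0782) and with chase libraries summed (0.16, edgeR adjusted p 0.126). The other 6 members lay between −0.08 and 0.06 on the log2 scale. Ythdc1, called in both other lines, ranged from 163 through 219 to 231 CPM in Ctrl and from 180 through 203.5 to 214.5 CPM in dTAG libraries of this line, a log2 change of 0.02 (SE 0.051, edgeR adjusted p 0.83).

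**Figure D2:**
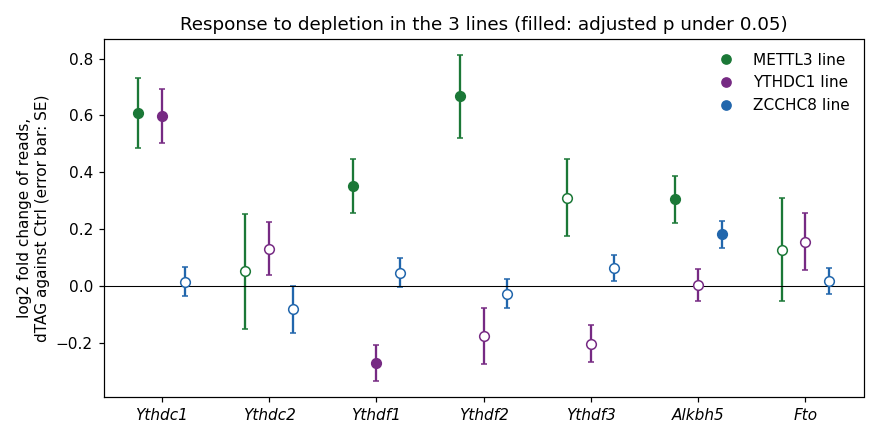
Log2 fold change of read counts, dTAG against Ctrl, of each member (x axis) in each degron line, with points for the edgeR estimate filled where the adjusted p is under 0.05 and bars for 1 SE. In the METTL3 line Ythdf2 and Ythdc1 reach 0.67 and 0.61, in the YTHDC1 line Ythdc1 stands at 0.60 and Ythdf1 at −0.27, and in the ZCCHC8 line the members lie between −0.08 and 0.18.

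The differences between the lines were tested directly, as interactions over all 36 libraries and 15105 genes. These contrasts share libraries and are not independent of each other. Between the METTL3 and YTHDC1 lines, 4 of 7 members differed, against 20.6% of all genes. All 3 cytoplasmic readers had the higher change under loss of METTL3, by 0.82 for Ythdf2 (SE 0.15, edgeR adjusted p 2.7e-04), 0.60 for Ythdf1 (SE 0.097, edgeR adjusted p 4.7e-05) and 0.49 for Ythdf3 (SE 0.13, edgeR adjusted p 0.00535). Alkbh5 differed by 0.28 (SE 0.078, edgeR adjusted p 0.0104). Ythdc1 differed by −0.01 (SE 0.13, edgeR adjusted p 0.97), and this difference was 0.21 without replicate 2.

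Against the YTHDC1 line, the ZCCHC8 line differed in Ythdc1 alone among the 7, by −0.64 (SE 0.13, edgeR adjusted p 0.00125), and 14.4% of all genes were called. Ythdf1 differed by 0.26 (edgeR adjusted p 0.0724) and passed with the replicate block (edgeR adjusted p 0.00558), which called 32.3% of all genes. Against the METTL3 line, the ZCCHC8 line differed in 3 of 7 members, with 23.7% of all genes called. The differences were −0.73 for Ythdf2 (SE 0.15, edgeR adjusted p 7.69e-04), −0.63 for Ythdc1 (SE 0.13, edgeR adjusted p 7.97e-04) and −0.34 for Ythdf1 (SE 0.097, edgeR adjusted p 0.0108). Without replicate 1 the difference of Ythdc1 was −0.37 (edgeR adjusted p 0.0646). Ythdf3 differed by −0.28 (edgeR adjusted p 0.108) and passed with the replicate block (−0.26, edgeR adjusted p 0.0211), which called 43.5% of all genes.

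Untreated cells of the 3 clones were compared as well. Between the Ctrl libraries of the YTHDC1 and METTL3 lines, edgeR called 0 of 7 members, against 2.43% of 14267 genes. An unadjusted edgeR p under 0.05 was reached by 1 member and by 2351 of these genes. Between the ZCCHC8 and METTL3 lines 3 of 7 were called, against 30.7% of genes, and these 3 were lower in the ZCCHC8 line. They were Ythdc2 (−0.35, SE 0.096, edgeR adjusted p 0.0145), Ythdc1 (−0.28, SE 0.088, edgeR adjusted p 0.0252) and Ythdf3 (−0.20, SE 0.065, edgeR adjusted p 0.0324). Without replicate 2 the calls of Ythdc1 (−0.20, edgeR adjusted p 0.263) and Ythdf3 (−0.20, edgeR adjusted p 0.173) were lost. Fto went the other way (0.27, edgeR adjusted p 0.062) and was called higher in the ZCCHC8 line with the replicate block (0.28, edgeR adjusted p 0.0197) and without replicate 2 (0.47, edgeR adjusted p 0.0131). These settings called 46.6% and 46.5% of all genes. Between the ZCCHC8 and YTHDC1 lines 0 of 7 were called by edgeR, against 13.6% of genes. Here 2 members had an unadjusted edgeR p under 0.05, against 5241 of the 14267 genes. The replicate block called 2, Ythdc1 and Fto, against 36.7% of genes. Fibroblast markers were also higher in ZCCHC8 Ctrl libraries than in METTL3 ones, with 3 of 5 tested called higher and a summed level of 58.6 to 66.6 against 32.2 to 59.7 CPM, and their part in these differences was not tested. Clone and line cannot be told apart.

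The labelled share of each mRNA showed how much of it had been made during the 4 h pulse. The new-to-total ratio is GRAND-SLAM's estimate of the fraction of new RNA, given here in percent. At the end of the pulse in METTL3 Ctrl cells (replicates 1 and 2), it was 92.2% and 98.6% for Ythdf2, 89.7% and 94.9% for Ythdf1, and 90.1% and 94.6% for Alkbh5. Nearly all mRNA of these 3 genes was thus read as new. Ythdf3 was at 75.7% and 83.05%, Ythdc1 at 71.5% and 76.5%, Ythdc2 at 50.3% and 55.7%, and Fto at 33.8% and 38.4%. The median gene of the same libraries was at 59.6% and 61.3%, so that Fto, the other eraser, lay below it.

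In METTL3-depleted cells the same measurement was lower for most readers. The median gene of these 0 min libraries was lower too, at 52.65% and 49.1%. At 0 min, Ythdf2 stood at 56.9% and 55.3%, Ythdf1 at 59.4% and 57.3%, Ythdf3 at 61.0% and 56.5%, and Ythdc1 at 61.5% and 56.7%. Alkbh5 was at 82.1% and 81.2%, and Fto at 31.9% and 30.4%. Ythdc2 was the exception, at 67.8% and 66.4%, above both Ctrl values. The T-to-C rate of Ythdf2, which uses no model, was 7.32% (95% Wilson interval 7.15 to 7.49) and 8.91% (8.71 to 9.11) in Ctrl and 4.08% (3.99 to 4.16) and 5.09% (4.98 to 5.20) in dTAG libraries. Such intervals cover counting error only, since PCR copies are not independent molecules. The median gene's T-to-C rate was 4.35% and 4.915% in these Ctrl and 3.65% and 4.36% in these dTAG libraries.

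Averaged over the 3 chase times, the ratio was lower in dTAG libraries of the METTL3 line for 3 of 7 members, against 27.1% of 8289 genes called in either direction. Fto fell by 0.45 on the log2 scale (SE 0.093, limma adjusted p 0.00102), Ythdf1 by 0.31 (SE 0.11, limma adjusted p 0.0307) and Ythdf3 by 0.28 (SE 0.094, limma adjusted p 0.0296). Ythdf2 was at −0.30 (SE 0.12, limma adjusted p 0.0617), and with the replicate block its limma adjusted p was 0.0484, with 37.5% of all genes called. Ythdc1 (−0.09), Alkbh5 (−0.07) and Ythdc2 (−0.02) were not called. Leaving out replicate 1 kept only the call of Fto (10.3% of all genes called), and leaving out replicate 2 kept none (8.1%). In the latter fit 3 members and 2788 genes had an unadjusted limma p under 0.05. All genes shifted by a median of −0.15, with 245 called higher and 2001 lower. With the median of each library subtracted, a setting chosen after seeing the data, 1904 genes were higher and 810 lower, Fto stayed lower (−0.23, limma adjusted p 0.0428), Alkbh5 was higher (0.15, limma adjusted p 0.0139), and Ythdf1 (−0.10) and Ythdf3 (−0.07) were not called. At 0 min alone, also examined after seeing the data, the differences were −0.77 for Ythdf2 (SE 0.17, limma adjusted p 0.00159) and −0.66 for Ythdf1 (SE 0.17, limma adjusted p 0.00692), and 10.1% of genes were called.

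**Figure D3:**
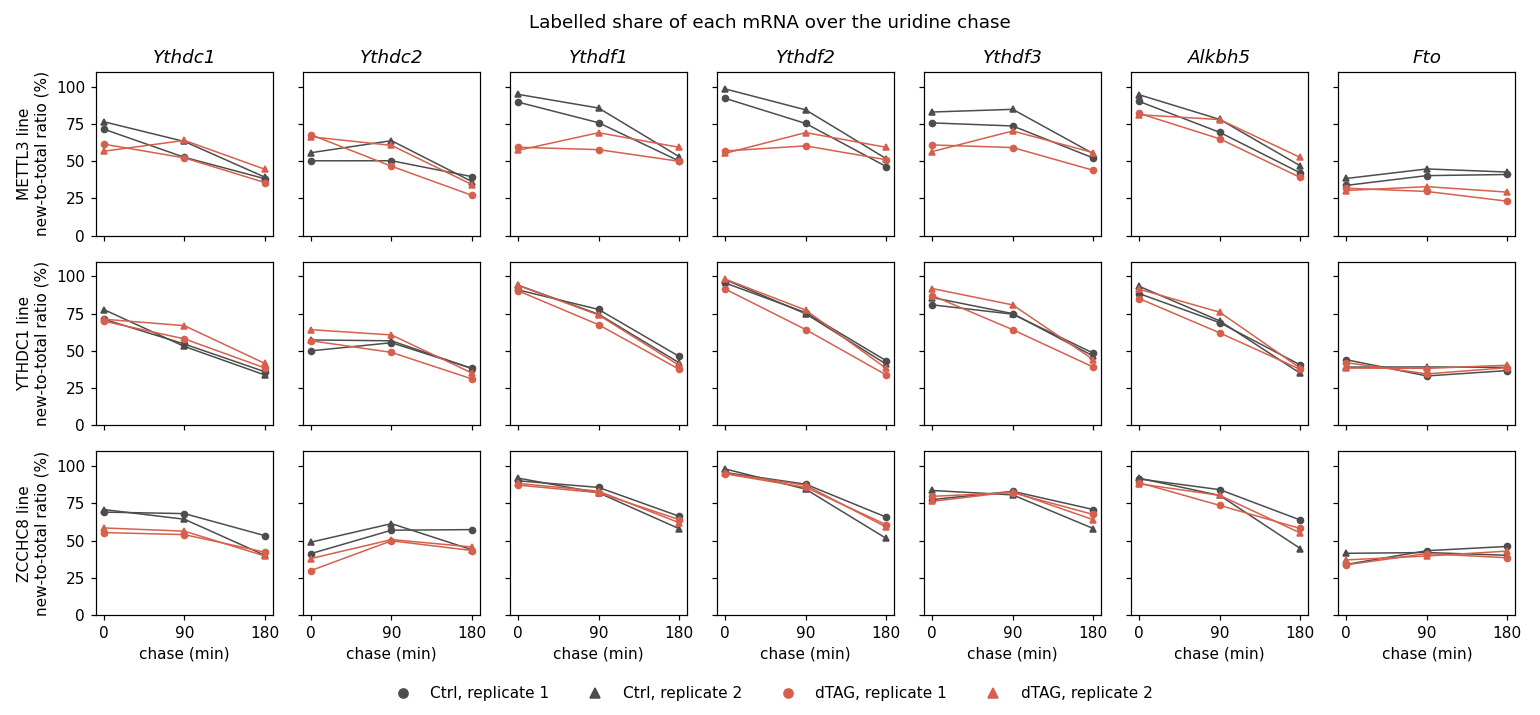
New-to-total ratio in percent (y axis) of each member over the uridine chase in minutes (x axis), with a line for each arm and replicate of each degron line. At 0 min in the METTL3 line, Ythdf2 starts at 92.2% and 98.6% in Ctrl and at 56.9% and 55.3% in dTAG libraries, while Fto lies between 23.2% and 44.8% in all libraries of that line.

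Splitting each level at 0 min into a new and an old part, by multiplying CPM with the ratio, showed where the extra reader RNA lay in METTL3-depleted cells. This is a description of 2 replicates without a test, and an old part rests on a small difference where the ratio is near 100%. Old Ythdf2 mRNA was at 21.9 and 3.35 CPM in Ctrl and 227 and 177 CPM in dTAG libraries, whereas new Ythdf2 was at 261 and 231 against 299 and 219 CPM. Old Ythdf1 was at 20.3 and 8.15 against 94.2 and 95.9 CPM, and new Ythdf1 at 177 and 152 against 138 and 129 CPM. For both genes the old part was higher in both replicates, and the new part was not consistently higher. Old Ythdf3 was at 36.9 and 25.1 against 74.3 and 74.8 CPM, and old Alkbh5 at 11.7 and 5.98 against 24.1 and 24.3 CPM. The median gene's old part differed by −0.01 and 0.23 on the log2 scale and its new part by −0.14 and −0.24.

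Ythdc1 was higher in both parts. Under loss of METTL3 its old part was at 152 and 142 CPM, against 64.0 and 50.9 CPM in Ctrl libraries, and its new part at 242 and 186 against 161 and 166 CPM. In the YTHDC1 line its old part was at 99.3 and 93.3 CPM with dTAG-13, against 45.3 and 46 CPM in Ctrl libraries, and its new part at 232 and 232 CPM with dTAG-13, against 113 and 161 CPM in Ctrl libraries. There the shares of new RNA stayed alike in both arms, at 71.3% and 77.8% in Ctrl and 70.0% and 71.3% in dTAG libraries at 0 min. In the ZCCHC8 line, where its read count was not called, the old part was at 87.8 and 74.6 CPM with dTAG-13, against 57.8 and 47.4 CPM in Ctrl libraries. Its new part there was at 109 and 105 CPM with dTAG-13, against 130 and 116 CPM in Ctrl libraries. On the log2 scale these Ythdc1 differences were 0.60 and 0.65 (old) and −0.25 and −0.13 (new). Old Ythdf1 (0.45 and 0.51), Ythdf2 (0.35 and 1.33), Alkbh5 (0.52 and 0.69) and Ythdc2 (0.19 and 0.35) were higher there too. Old Ythdf3 and Fto differed in sign between replicates. The median gene's old part differed by −0.09 and 0.07 in that line and its new part by −0.08 and −0.17.

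**Figure D4:**
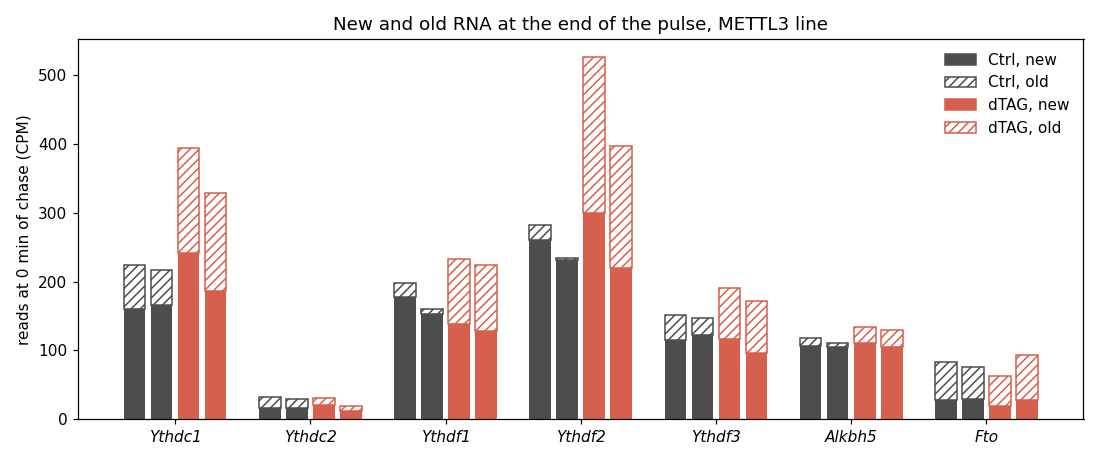
New and old RNA of each member at 0 min of chase in CPM in the METTL3 line, as stacked bars from 0 with filled new and hatched old parts, and 1 bar for each replicate of Ctrl (grey) and dTAG (red). The old part of Ythdf2 is 21.9 and 3.35 CPM in Ctrl and 227 and 177 CPM in dTAG libraries, and the old part of Ythdf1 is 20.3 and 8.15 against 94.2 and 95.9 CPM.

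In the YTHDC1 line, limma called 0 of 7 members for the ratio, against 0.306% of 8820 genes. An unadjusted limma p under 0.05 was reached by 0 members and by 1219 of these genes. In the ZCCHC8 line 0 of 6 were called, against 1.14% of 7251 genes, and 1 member and 1201 of these genes had an unadjusted limma p under 0.05. Ythdc2 was not tested there because 1 library held 97 of its reads, under the minimum of 100. The member nearest the threshold was Ythdc1, whose ratio at 0 min was 69.2% and 70.9% in Ctrl and 55.4% and 58.5% in dTAG libraries of the ZCCHC8 line. Its difference was −0.25 (SE 0.063, limma adjusted p 0.0671). It passed with the T-to-C rate in place of the ratio (−0.31, limma adjusted p 0.0456) and, in a setting chosen after seeing the data, with the median of each library subtracted (−0.18, limma adjusted p 0.0455). These settings called 4.25% and 1.5% of all genes.

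Over the chase, the labelled share falls as labelled RNA decays and as unlabelled RNA is made. After 180 min in METTL3 Ctrl cells, 50.4% and 52.5% of the starting share was left for Ythdf2, 55.9% in each replicate for Ythdf1, and 46.8% and 49.6% for Alkbh5. In dTAG cells of that line 89.7% and 107% was left for Ythdf2 and 84.1% and 104% for Ythdf1, against 47.6% and 64.7% for Alkbh5. For Ythdf2 and Ythdf1 both dTAG replicates thus kept more of their share than both Ctrl replicates, and a value above 100% means a higher ratio than at 0 min. By the T-to-C rate, 75.2% and 77.7% was left for Ythdf2 and 72.7% and 77.3% for Ythdf1 in dTAG cells. In Ctrl cells this was 33.5% and 28.4% for Ythdf2 and 40.65% and 33.4% for Ythdf1. In the METTL3 line the median gene's ratio also rose from 0 to 90 min in replicate 2, but not in replicate 1. It went from 49.1% to 56.6% in dTAG and from 61.3% to 66.5% in Ctrl libraries. The ratio of Fto did not fall in METTL3 Ctrl cells, with 122% and 111% left. Its T-to-C rate did fall there, with 83.4% and 74.9% left. In log-linear fits the Ctrl half-life of the Ythdf2 share was 3.03 and 3.22 h in the METTL3 line, 2.63 and 2.40 h in the YTHDC1 line and 5.54 and 3.23 h in the ZCCHC8 line. The 2 replicates of the ZCCHC8 line thus differed by more than the METTL3 and YTHDC1 lines did. In ZCCHC8 Ctrl libraries the median gene's ratio at 0, 90 and 180 min was 49.1%, 64.0% and 57.2% in replicate 1. It was 56.4%, 63.8% and 47.5% in replicate 2. Half-lives of Ythdf2 from the T-to-C rate were shorter in every case. They were 1.90 and 1.65 h (METTL3), 1.59 and 1.46 h (YTHDC1) and 1.96 and 1.54 h (ZCCHC8).

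The rate of loss was compared between arms as an interaction of arm and chase time, in log2 per h, where a positive value means slower loss in dTAG cells. In the METTL3 line limma called 0 of 7 members, against 0.471% of 8289 genes. An unadjusted limma p under 0.05 was reached by 4 members and by 578 of these genes. Ythdf2 had the largest difference, 0.31 per h (SE 0.092, limma adjusted p 0.142), and passed with the replicate block (limma adjusted p 0.04, with 1.19% of all genes called). Ythdf1 was at 0.25 (limma adjusted p 0.362), Ythdc2 at −0.22 (0.513) and Fto at −0.16 (0.688). With the median of each library subtracted, chosen after seeing the data, these 4 were called beside 14.1% of all genes, with limma adjusted p of 4.94e-05 for Ythdf2 (0.28), 2.52e-04 for Ythdf1 (0.22), 0.00358 for Ythdc2 (−0.25) and 0.0453 for Fto (−0.19). Relative to the median gene of each library, the slope was then higher in dTAG than in Ctrl cells for Ythdf2 and Ythdf1. For Ythdc2 and Fto it was lower, although the ratio of Fto itself did not fall in Ctrl cells. In the YTHDC1 line 0 of 7 and in the ZCCHC8 line 0 of 6 members were called by limma, against 0% of genes in both lines. In each, 0 members had an unadjusted limma p under 0.05, against 195 of 8820 and 147 of 7251 genes.

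The other genes of the pathway were described by fixed lists. In the METTL3 line, where 20.1% of all genes were called, 3 of 12 writer genes rose and none fell (median 0.15, against 0.01 for all genes). These were Wtap, the adaptor of the writer complex, by 1.07 (edgeR adjusted p 0.00283), its partner Virma by 0.62 (0.00326) and the separate methyltransferase Mettl16 by 0.30 (0.0283). Of 11 other m6A-binding proteins (median −0.19) and 10 partners of the readers (median 0.06), edgeR called none. Among 7 other AlkB-family dioxygenases, Alkbh8 (0.49), a tRNA modifier, and Alkbh1 (0.43) rose and Alkbh7 (−0.53), a mitochondrial member, fell.

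In the YTHDC1 line, where 5.25% of all genes were called, none of 12 writers was called (median 0.10). Rbmx, an RNA-binding protein of the hnRNP family, rose by 0.48 (edgeR adjusted p 0.0142) as 1 of 11 other binding proteins, and Meioc, the meiotic partner of YTHDC2, fell by 0.50 (edgeR adjusted p 0.00579) as 1 of 10 partners. None of the 7 AlkB-family genes was called. In the ZCCHC8 line, where 39.6% of all genes were called, 3 of 12 writers rose, namely Pcif1 (0.33), the methyltransferase of the cap-adjacent adenosine, and the RNA-binding subunits Rbm15 (0.28) and Rbm15b (0.11). Of 11 other binding proteins, Rbmx (0.40) and Igf2bp1 (0.28) rose and Elavl1 (−0.13) fell, and 4 of 10 partners rose, among them Meioc (0.38), the splicing factor Srsf10 (0.16) and the deadenylase scaffold Cnot1 (0.14). Alkbh7 fell (−0.31). The medians of these 4 lists in that line were 0.04 to 0.11, against −0.00 for all genes.

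For the new-to-total ratio in the METTL3 line, 5 of 11 writers tested were lower and none higher (median −0.24), against 27.1% of all genes called, 2001 of them lower, and a median of −0.15. As given above, subtracting library medians turned the balance of all genes to 1904 higher and 810 lower. The largest differences were those of the subunits Virma (−0.63, limma adjusted p 1.08e-05), Zc3h13 (−0.42) and Rbm15b (−0.32). Of 11 other m6A-binding proteins (median −0.01), Hnrnpc (0.34) was higher and Igf2bp3 (−0.30) lower. The exonuclease Xrn1 (−0.30) was lower as 1 of 10 partners, and Alkbh8 (−0.38) as 1 of 4 AlkB-family genes tested.

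Over the 18 pairs of dTAG and Ctrl libraries, the gene whose change in log2 CPM was most like that of Ythdc1 among 9512 genes was Gm43055 (Pearson r 0.97), the gene that overlaps it. Cfap97 (0.953) and Zfp39 (0.948) followed. The closest gene was Coa6 for Ythdf2 (0.965), Kcnk6 for Ythdf1 (0.947), Ahctf1 for Ythdf3 (0.937), Cgnl1 for Alkbh5 (0.912), Mtss1l for Fto (0.91) and Mtmr6 for Ythdc2 (0.887). The pairs share lines, replicates and depth, and these values are given as a description.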

How the data were processed

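The authors removed ribosomal reads, aligned the rest to mm10 with STAR 2.5.2b (unique alignments, mismatch limit 0.06) and ran GRAND-SLAM on the 6 libraries of each line and replicate. The limit on mismatches can remove heavily converted reads. Gene annotation release, GRAND-SLAM version and use of strand were not given in the sources used here. The deposited count columns hold raw reads per gene. The deposited new-to-total ratio is a fraction (posterior maximum), and the deposited conversion and coverage columns are signal sums, whose quotient is the T-to-C rate. Of the tables' columns, 252 were used and 180 further columns were not used here.

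Counts were tested with edgeR 4.0.16 (filterByExpr, TMM within the libraries fitted, robust quasi-likelihood, chase time as a factor), so fitted changes can differ from those read off the CPM, which use TMM over all libraries. Ratios were tested as log2 values with limma 3.58.1 (genes whose reads and ratio reached 100 and 0.02 in all libraries of a line). All p-values were adjusted over all genes tested (Benjamini-Hochberg, threshold 0.05). Other tools were DESeq2 1.42.0, R 4.3.3 and Python 3.11.15. The tests were checked on simulated data. Members and lists were chosen with earlier results of these data known. All members were named, and of each list at most 3 genes past the threshold with the largest change. Reads of the 9512 genes compared with the members averaged at least 10 CPM.

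Replicates of a group differed by more than sampling noise (chi-square per degree of freedom 2.45 to 77.9). The labels number them 1 and 2 in every group, and the study split the wells of a replicate from a common batch of cells. Deviations of same-numbered Ctrl and dTAG libraries had correlations of 0.756 to 0.881 (METTL3), 0.82 to 0.886 (YTHDC1) and 0.307 to 0.363 (ZCCHC8), all over 0.1, so the numbers were taken to pair the libraries and the replicate block was run as an alternative. Only uniquely aligned reads were kept, and sharing of reads among the Ythdf paralogues was not tested. RefSeq promoter tables held 5 of the 7 members. Gene positions came from the GENCODE annotation of mm10. Alternatives were other scalings and tools, no filter on low counts, summed chase libraries, the T-to-C rate or posterior mean in place of the ratio, lower minimums, and leaving out either replicate.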

Additional observations from a re-analysis of the deposited data

Results flagged for a closer look

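The response to dTAG-13 differed in any contrast between lines for 5 of the 7 members (interaction test over all 36 libraries, edgeR, adjusted over 15105 genes). Of all genes, 20.6% were called between METTL3 and YTHDC1, 14.4% between ZCCHC8 and YTHDC1, and 23.7% between ZCCHC8 and METTL3. The share of genes called in any contrast was not computed, so the 5 of 7 has no matching share. Between the METTL3 and YTHDC1 lines the difference of the log2 fold changes was 0.82 for Ythdf2, 0.60 for Ythdf1, 0.49 for Ythdf3 and 0.28 for Alkbh5. Ythdf1 rose in the METTL3 line and fell in the YTHDC1 line. Between the ZCCHC8 and YTHDC1 lines the difference was −0.64 for Ythdc1. Between the ZCCHC8 and METTL3 lines it was −0.73 for Ythdf2, −0.63 for Ythdc1 and −0.34 for Ythdf1. Each group held 2 replicates, too few for a test for libraries far from the others.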

How the results depend on the processing

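Over the counts of called members and the other summary values, 67 alternatives stayed on the same side or within 1.5 times, 14 gave more calls, 9 fewer and 1 moved. Over single members, 279 kept direction and call, 30 gained and 27 lost the call, and 24 changed sign, all but 1 of these without a call in either setting. The exception was Alkbh5, whose ratio in the METTL3 line was 0.15 with the median of each library subtracted. This setting and the difference at 0 min were chosen after seeing the data.

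Without a filter on low counts, 2 members were called after loss of METTL3 (11.6% of all genes) and 1 after loss of YTHDC1 (2.83%). With chase libraries summed, edgeR called 0 in each of the METTL3, YTHDC1 and ZCCHC8 lines, with 0, 1 and 1 at an unadjusted p under 0.05. Over all genes this setting called 0%, 0% and 24.8%, with 1433, 696 and 5771 genes at an unadjusted edgeR p under 0.05. The replicate block called 4 members in the YTHDC1 line (27.3% of all genes) and 2 between the ZCCHC8 and YTHDC1 responses (32.3%). DESeq2 size factors also called 2 between these responses (13.4%). The block further called 2 between the Ctrl libraries of these lines (36.7%) and 1 for label loss in the METTL3 line (1.19%). Its other gained calls, of Ythdf3 and Ythdf2 in single comparisons and of Fto between ZCCHC8 and METTL3 Ctrl libraries, are given beside those results, and it changed no other call of a member. For the ratio, the T-to-C rate called 1 member in the METTL3 line (8.35% of all genes) and 1 in the ZCCHC8 line (4.25%). Subtracting library medians called 1 in the ZCCHC8 line (1.5%) and 4 for label loss in the METTL3 line (14.1%). The members' median slope over the chase was −0.23 log2 per h for the ratio and −0.47 for the T-to-C rate. Leaving out replicate 1 or 2, in that order, gave 4 and 2 called members after loss of YTHDC1 (25% and 9.58% of all genes). After loss of ZCCHC8 it gave 1 and 0 (37% and 24.5%). For the ZCCHC8 minus YTHDC1 response it gave 4 and 1 (29.2% and 11.9%). Ctrl libraries gave 1 and 0 between YTHDC1 and METTL3 (15% and 1.08%), and 2 and 1 between ZCCHC8 and YTHDC1 (30.3% and 39.6%). With METTL3 lost, the ratio gave 1 and 0 (10.3% and 8.1%) and label loss 0 and 2 (0.29% and 5.43%). The cause of these changes was not tested.

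The sign changes without a call were these, and not all of them were near 0. Alkbh5 in the YTHDC1 line was at −0.000712 with DESeq2 size factors, −0.00195 without a filter, −0.00536 with DESeq2, −0.0265 with libraries summed and −0.0308 to 0.0209 without either replicate. In the ZCCHC8 line, Ythdc1 was at −0.00293 with size factors, −0.00674 without a filter, −0.00885 with DESeq2 and −0.0037 summed, and Fto at −0.00368 without a filter and −0.00542 with DESeq2. Without either replicate, Ythdc2 in the METTL3 line ranged from −0.23 to 0.30. In the METTL3 minus YTHDC1 response Ythdc1 ranged from −0.17 to 0.21, Ythdc2 from −0.23 to 0.0786 and Fto from −0.13 to 0.11, and in the ZCCHC8 minus METTL3 response Ythdc2 from −0.46 to 0.12. Ythdc1 was at 0.0103 in the METTL3 minus YTHDC1 response with size factors. The ratio of Ythdc1 in the METTL3 line was 0.00672 with the T-to-C rate and 0.12 with library medians subtracted. That of Ythdc2 was 0.045 with the T-to-C rate, 0.19 with medians subtracted, 0.34 at 0 min and −0.0763 to 0.0322 without either replicate.

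Over all genes, called counts moved by more than 1.5 times under some alternatives. After loss of METTL3, 2898 became 6994 with the replicate block, 7472 and 5717 without replicate 1 and 2, and 0 summed. After loss of YTHDC1, 746 became 3875, 3555, 1335 and 0 in the same order and 1132 with DESeq2, and after loss of ZCCHC8, 5533 became 3409 without replicate 2. The interactions rose from 3105, 2174 and 3579 to 6465, 4881 and 6574 with the block, and to 6485, 4396 and 6372 without replicate 1. Between Ctrl libraries, 347 genes became 154 to 2163, 4382 up to 6717 and 1939 up to 5666 over the block and either replicate left out. For the ratio, 2246 became 671 to 852 with the T-to-C rate, at 0 min or without a replicate in the METTL3 line, 27 became 0 to 198 in the YTHDC1 line and 83 became 3 to 308 in the ZCCHC8 line. Label loss calls went from 39 to between 5 and 1172, and from 0 to at most 31 and 74 in the YTHDC1 and ZCCHC8 lines. Depth was lowest in the ZCCHC8 line, where Ythdc2 could not be tested for its ratio.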

Other observations

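The letters GGACT, a frequent setting of m6A in mRNA, were counted in the longest coding transcript of each member. Alkbh5 held 10 in 5730 bases (1.75 per kilobase, above 82% of 16996 coding genes) and Ythdf2 held 5 in 4129 bases (1.21 per kilobase), against a median of 1.05 per kilobase. The other members lay below that median, with 2 matches in Ythdc1 (0.612 per kilobase), 2 in Fto (0.425), 3 in Ythdc2 (0.416), 1 in Ythdf1 (0.314) and 1 in Ythdf3 (0.196). A match says nothing about whether the base was methylated here.

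At 0 min, old RNA of Ythdc2, the least abundant member, was at 9.99 and 6.45 CPM after loss of METTL3, against 16.0 and 12.9 CPM in Ctrl cells, opposite in direction to the old RNA of the other readers. In the YTHDC1 line, old Ythdf3 was at 22.1 and 17.7 CPM in Ctrl and 13.2 and 7.72 CPM in dTAG libraries. Both are values of 2 replicates without a test.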
